A study of Mus musculus with 6 samples.

Results

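The collagen genes other than type IV were examined in RNA sequencing libraries of TKO cells, a mouse ovarian cancer line whose name stands for triple knockout. They were all protein-coding genes in the count table whose symbol is Col, a number, the letter a and a number, without the Col4a genes, which gave 38 of the 49315 genes counted. There were 3 libraries of TKO cells knocked out (KO) for MNRR1, the product of the gene Chchd2, and 3 of TKO cells with wild-type (WT) MNRR1. The genes already knocked out in this line, which both genotypes carry, are not named in the labels, and all KO libraries carry the name of 1 clone, so that clone and genotype cannot be told apart. No label says that replicates were separate cultures, so p-values measure the spread between these libraries, which may be technical.

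Collagens are secreted or membrane proteins whose chains wind around each other in threes, and the types are named by which chains join. Fibrillar collagens form the ropes of connective tissue. Fibril-associated collagens (FACITs, with interrupted helices) decorate those fibrils, type VI forms beaded filaments, and multiplexins sit at basement membranes. A chain can often be secreted only with its partner, so the genes are described by the types their chains build. In ovarian cancer, collagens of the stroma and of the tumour cells are known for their part in adhesion, invasion and drug resistance.

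Library totals ran from 33226463 to 40983999 counts, and a count of 0 in a library allows up to 3 counts, or 0.0732 to 0.0903 CPM (counts scaled to library size, with edgeR's TMM factors in all values given per gene). Chchd2 was at 16.6, 17.6 and 16.96 CPM in KO libraries 1 to 3, against 367, 349 and 340 CPM in WT libraries 1 to 3, so the targeted gene went with the labels. Correlations of log CPM over the tested genes were at least 0.991 within KO and at least 0.993 within WT, and lay between 0.952 and 0.970 across genotypes. Markers of the ovarian surface, granulosa cells and Mullerian epithelium (5 of 9 tested, 0 higher and 3 lower) summed to 2238 to 2480 CPM in KO and 3157 to 3373 in WT, most of it Upk3b and Wt1, while granulosa Foxl2 was near 0 and Mullerian Pax8 was at 0.0259 CPM in KO and 0.313 in WT. Epithelial markers (6 of 6 tested, 1 higher and 3 lower) summed to 1110 to 1146 CPM in KO and 1427 to 1639 in WT. Krt7 (81.3 CPM in KO, 299 in WT), Krt8 (283 and 480) and Krt18 (275 and 402) were lower. Krt19 (481 and 354) was higher. Epcam (2.43 CPM in KO, 2.28 in WT) and Cdh1 (0.48 and 0.58) did not pass the test. Of the fibroblast and mesenchymal markers (5 of 7 tested, 1 higher and 1 lower; summed level 454 to 500 CPM in KO and 498 to 535 in WT), Dcn made up nearly all, Lum and Fap were near 0, Pdgfrb rose to 4.75 CPM in KO, against 1.08 in WT, and Thy1 fell to 0 counts in all KO libraries, against 246 in the WT libraries together. Smooth muscle and pericyte markers (3 of 5 tested, 0 higher and 2 lower) summed to 15.98 to 44.1 CPM in KO and 218 to 246 in WT. Leukocyte markers (2 of 7 tested, 0 higher and 2 lower; 3.02 to 3.69 CPM in KO and 5.29 to 8.09 in WT, Cd3e at 0) and endothelial markers (3 of 5 tested, 1 higher and 1 lower; 2.73 to 3.79 CPM in KO and 5.74 to 6.26 in WT) were low. Bone and cartilage markers (1 of 6 tested, 1 higher; 1.03 to 1.72 CPM in KO and 0.572 to 1.06 in WT, Matn1 at 0) were near absent. Of all tested genes, 27.8% were higher and 27.8% lower by the test described below, so calls among so few markers say little about a cell type. Whether these markers have a part in the collagen differences was not tested, and in bulk RNA fewer cells of a type and less RNA per cell cannot be told apart.

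Of the 38 collagen genes, 23 had enough counts to be tested, and 9 of them were higher and 7 lower in KO, by edgeR's quasi-likelihood test (p under 0.05 after Benjamini-Hochberg, BH, adjustment over all 16033 genes tested). These are 39.1% and 30.4% of the tested collagen genes, where 27.8% of all tested genes were higher and 27.8% lower. In either direction the share was 69.6%, against 55.7% of all tested genes, and changes of at least 2-fold were called for 10 of the 23 (43.5%), against 14.1% of all tested genes. KO and WT libraries did not overlap for 16 of the 23 (69.6%), against 64% of all tested genes. The median log2 fold change (KO over WT) of the 23 was 0.17, beside 0.01 for all tested genes. The 23 passed a filter on low counts that a gene high in 1 genotype can pass through that genotype alone. Col2a1, Col8a1 and Col27a1 met it only through their KO libraries and Col28a1 only through its WT libraries, the higher group each time. Their test results were therefore not independent of the filter.

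**Figure D1:**
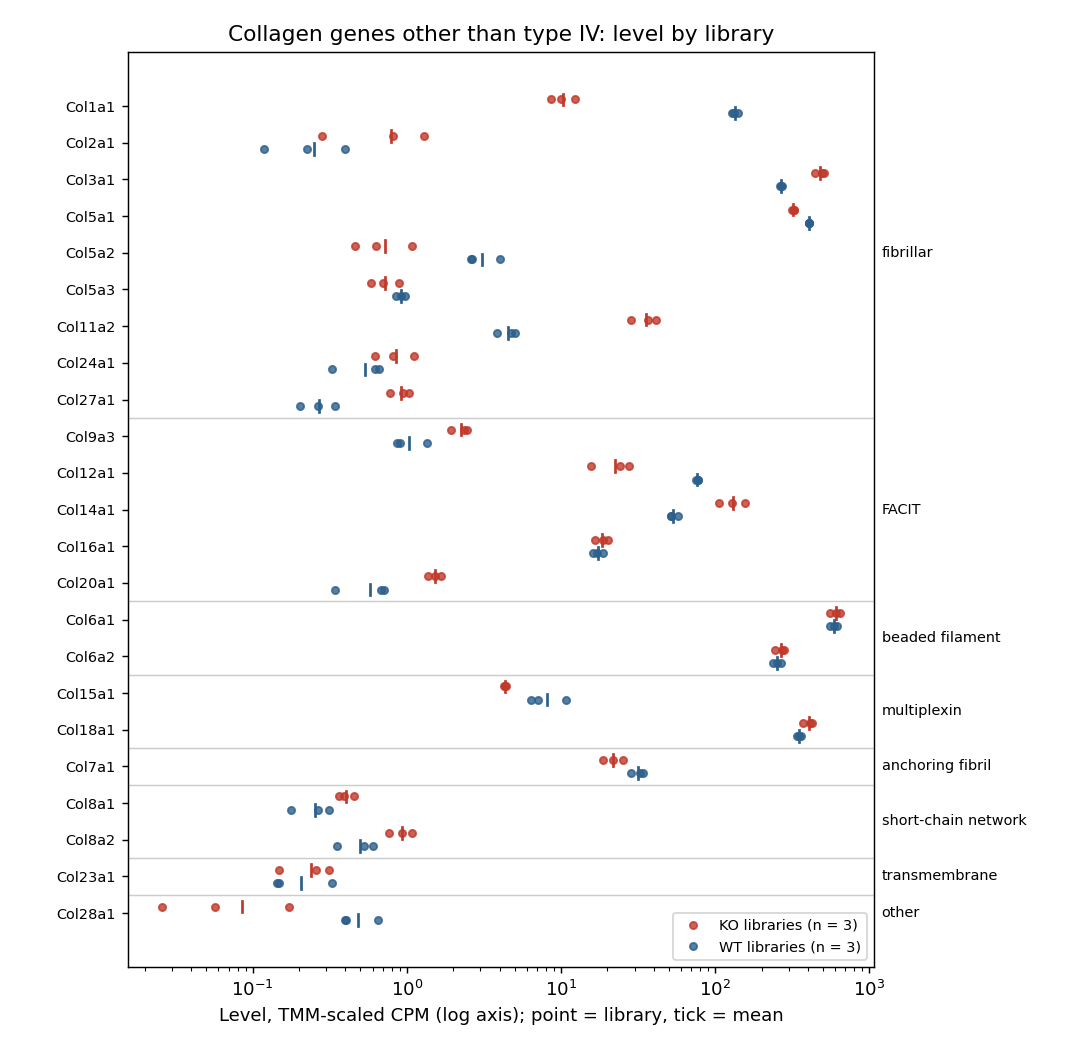
Level of each tested collagen gene in TMM-scaled CPM (log axis) by class; each point is a library (n = 3 per genotype, KO above WT) and each tick a mean. Col1a1 and Col12a1 lie far to the left in KO, Col11a2, Col14a1 and Col3a1 to the right, and Col6a1 and Col6a2 overlap.

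Fibrillar collagens held both the greatest fall and the greatest rise of the 23 tested collagen genes. Col1a1, a chain of type I collagen (chromosome 11, positions 94936224 to 94953042, plus strand of GRCm38), was at 12.3, 8.65 and 10 CPM in KO libraries 1 to 3, against 140, 130 and 132 CPM in WT libraries 1 to 3. Every KO library was far below every WT library, and the KO mean was 7.70% of the WT mean. Its log2 fold change was -3.70 (SE 0.11; adjusted p = 7.31e-09, edgeR). Col1a2, the partner chain of type I (chromosome 6, positions 4504814 to 4541544, plus strand), had 0, 0 and 1 counts in KO libraries and 1, 0 and 2 counts in WT libraries, at or under the 3 counts that a count of 0 allows. Col1a1 had 430, 352 and 388 counts in the same KO libraries and 4902, 4392 and 5257 in the WT libraries, so at this depth type I transcripts were nearly all of 1 chain in both genotypes. Chains of Col1a1 are known to be able to join without Col1a2, but no protein was measured here. The smooth muscle genes Acta2 (24.7 CPM in KO, 174 in WT) and Tagln (3.00 CPM in KO, 58.4 in WT) were lower in the same libraries. Of the same marker list, Myh11 (1.15 CPM in KO, 1.30 in WT) did not pass (adjusted p = 0.562, edgeR). Rgs5 and Cspg4 had too few counts to be tested. The part of these genes in the fall of Col1a1 was not tested.

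Col3a1, whose chain forms type III collagen by itself (chromosome 1, positions 45311538 to 45349706, plus strand), was at 492, 442 and 508 CPM in KO libraries 1 to 3, against 268, 265 and 270 CPM in WT libraries 1 to 3. It rose by 0.84 on the log2 scale (SE 0.06), a 1.796-fold change (adjusted p = 1.48e-06, edgeR), and the genotypes did not overlap. Levels of different genes can be set side by side per kilobase of exon. On this scale Col3a1 was at 49.0 and Col1a1 at 1.57 CPM in KO libraries. The WT libraries had Col3a1 at 27.3 and Col1a1 at 20.4 CPM. These values depend on the length used. With the longest annotated transcript, a choice made after the data were seen, Col3a1 was at 48.1 and Col1a1 at 22.6 CPM in WT libraries. In KO libraries Col3a1 was then at 86.4 and Col1a1 at 1.74 CPM.

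Col5a1, the chain common to most type V collagen, which starts and thins fibrils (chromosome 2, positions 27886425 to 28039514, plus strand), was at 325, 322 and 317 CPM in KO libraries 1 to 3 and 406, 406 and 405 CPM in WT libraries 1 to 3. The libraries of each genotype lay close together and apart from the other genotype, with a log2 fold change of -0.33 (SE 0.05; adjusted p = 1.24e-04, edgeR). Col5a2, its usual partner (chromosome 1, positions 45374321 to 45503282, minus strand), was at 0.630, 1.08 and 0.464 CPM in KO libraries and 2.60, 4.04 and 2.65 CPM in WT libraries. It fell by 2.08 on the log2 scale (SE 0.30, adjusted p = 1.86e-04 in edgeR's test), again without overlap. Col5a2 is the next gene to Col3a1 on chromosome 1, 24.6 kb away on the opposite strand with no coding gene between, and these neighbours moved in opposite directions. The third chain gene, Col5a3, averaged 0.724 ± 0.151 CPM in KO, against 0.915 ± 0.058 CPM in WT (SD, n = 3 libraries each), and did not pass the test (adjusted p = 0.304 in edgeR's test).

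Per kilobase of exon, Col5a1 was at 37.9 and Col5a2 at 0.0756 CPM in KO libraries, and Col5a1 at 47.8 and Col5a2 at 0.323 CPM in WT libraries. The log2 ratio of the CPM of Col5a1 to that of Col5a2 was 9.01, 8.22 and 9.42 in KO libraries 1 to 3, against 7.29, 6.65 and 7.26 in WT libraries 1 to 3. The KO ratio was the higher in all libraries, by 1.82 on the log2 scale. A two-sided exact permutation test gave p = 0.1, the lowest value open to 3 against 3 libraries. The BH adjusted p of this test was 0.2 over the 4 gene pairs with both genes tested. Among these pairs, Col15a1 and Col18a1 share a class and not a collagen type.

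**Figure D2:**
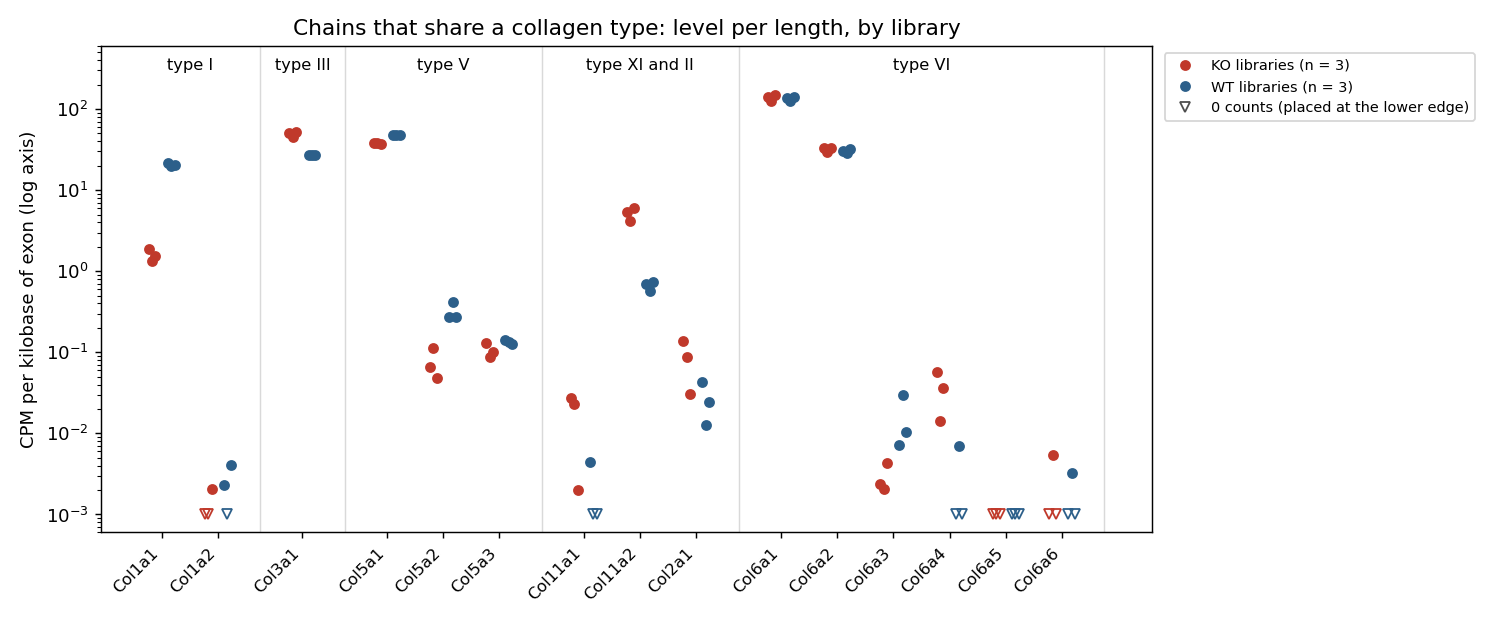
CPM per kilobase of exon (log axis) for the chains of types I, III, V, XI with II, and VI; each point is a library (n = 3, KO left of WT) and open triangles at the lower edge are libraries with 0 counts. Col1a2, Col5a2, Col11a1 and Col6a3 lie far below their partners Col1a1, Col5a1, Col11a2 and Col6a1 in both genotypes.

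A chain gene of type XI collagen, which nucleates cartilage-type fibrils, showed the greatest rise among the 23. Col11a2 (chromosome 17, positions 34039437 to 34066685, plus strand) was at 36.6, 28.3 and 41.3 CPM in KO libraries 1 to 3, against 4.72, 3.87 and 5.06 CPM in WT libraries 1 to 3. All KO libraries lay far above all WT libraries, with a log2 fold change of 2.95 (SE 0.15), a 7.75-fold rise (adjusted p = 3.65e-07, edgeR). Its partner chain Col11a1 stayed below the filter, with 12, 12 and 1 counts in KO libraries and 2, 0 and 0 in WT libraries. Col2a1, the cartilage collagen whose chain is also part of type XI, was at 1.29, 0.811 and 0.284 CPM in KO libraries and 0.400, 0.118 and 0.227 CPM in WT libraries. KO library 3 lay below WT library 1, and Col2a1 passed with a log2 fold change of 1.65 (SE 0.57, adjusted p = 0.0309 in edgeR's test). It did not pass in limma voom (adjusted p = 0.0681) or when KO replicate 1 (0.145), WT replicate 2 (0.105) or WT replicate 3 (0.0890) was left out. Col2a1 also met the filter on low counts only through its KO libraries, the higher group.

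The 250 bases before the transcript start of the fibrillar gene with the greatest rise, Col11a2, and of the most abundant one that rose, Col3a1, are shown to give the start regions of genes whose transcripts rose. Col3a1 was chosen for this after its values were seen. They are RefSeq sequences of GRCm38.p6 at chr17:34038888-34039137 and chr1:45311288-45311537, both on the plus strand, written from the far end to the base before the start. The Col3a1 window ends right before the gene start given above. The Col11a2 window ends at 34039137, upstream of the gene start of 34039437 given above. Distances below are from the RefSeq start. Capitals mark letters that match the TATA box, searched as TATAAA on both strands. They also mark the GC box, searched as GGGCGG on both strands and found here on the opposite one.
Col11a2: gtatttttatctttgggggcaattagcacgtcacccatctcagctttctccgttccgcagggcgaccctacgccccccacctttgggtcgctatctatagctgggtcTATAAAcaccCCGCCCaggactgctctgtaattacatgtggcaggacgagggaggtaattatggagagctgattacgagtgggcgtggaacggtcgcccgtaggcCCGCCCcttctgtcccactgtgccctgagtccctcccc
Col3a1: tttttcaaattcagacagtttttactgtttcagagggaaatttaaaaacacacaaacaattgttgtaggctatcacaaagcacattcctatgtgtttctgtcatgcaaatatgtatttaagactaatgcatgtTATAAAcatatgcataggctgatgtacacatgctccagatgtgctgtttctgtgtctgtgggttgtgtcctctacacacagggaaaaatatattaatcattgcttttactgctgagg
Col11a2 held 1 TATA box match, 143 bases before the start, and GC box matches on the opposite strand at 133 and 38 bases, none of them overlapping. Col3a1 held 1 TATA box match, 117 bases before the start, and 0 GC box matches. Neither held CCAAT, the NF-Y box, on either strand. Of the 32851 promoters in the RefSeq table, 12.4% held the TATA box, 32.7% the GC box and 33.9% the NF-Y box on either strand of the same window. Of the 38 collagen genes, 30 matched the table with 33 promoters, of which 5 held the TATA box, 19 the GC box and 10 the NF-Y box. A match describes letters and not a site in use.

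Among the rarer fibrillar genes, Col27a1, a fibrillar chain of cartilage, was at 0.945, 1.03 and 0.773 CPM in KO libraries and 0.343, 0.266 and 0.202 CPM in WT libraries. It rose by 1.76 on the log2 scale (SE 0.33, adjusted p = 8.83e-04 in edgeR's test) with no overlap, on 30 to 42 counts per KO library and 8 to 12 per WT library. Col27a1 met the filter only through its KO libraries, the higher group, so this call and lack of overlap were not independent of the filter. Col24a1, a fibrillar chain of developing bone, averaged 0.849 ± 0.251 CPM in KO, against 0.535 ± 0.181 CPM in WT (SD, n = 3 each). Col24a1 overlapped between genotypes and did not pass (adjusted p = 0.129). In all, 4 fibrillar genes rose and 3 fell of 9 tested among 11, where 27.8% of all tested genes were higher and 27.8% lower. So few genes say little about the class as a whole.

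**Figure D3:**
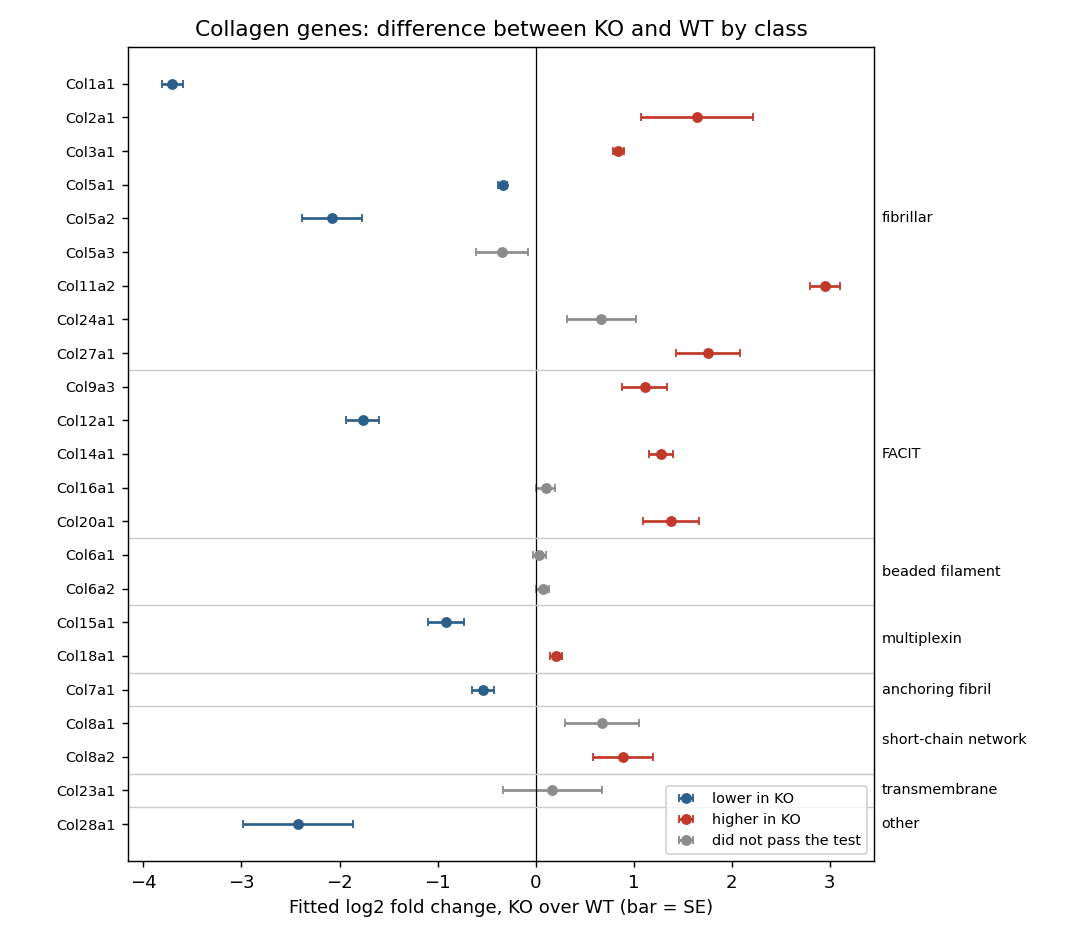
Fitted log2 fold change (KO over WT) of each tested collagen gene by class, with its SE as the bar. Col1a1 at -3.70 and Col11a2 at 2.95 mark the extremes, and Col6a1 and Col6a2 lie near 0.

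The fibril-associated collagens also divided. Col12a1, a FACIT of dense and loaded tissue that binds type I fibrils (chromosome 9, positions 79598991 to 79718831, minus strand), was at 24.2, 27.6 and 15.8 CPM in KO libraries 1 to 3, against 77.3, 75.1 and 77.2 CPM in WT libraries 1 to 3. It fell by 1.76 on the log2 scale (SE 0.17, adjusted p = 5.65e-05 in edgeR's test), and KO library 3 was the lowest of all. Col14a1, a closely related FACIT (chromosome 15, positions 55307750 to 55520803, plus strand), was at 129, 106 and 155 CPM in KO libraries 1 to 3, against 51.8, 51.6 and 57.3 CPM in WT libraries 1 to 3. It rose by 1.28 on the log2 scale (SE 0.12, adjusted p = 3.72e-05 in edgeR's test). For both genes the genotypes did not overlap, and KO library 2 was the KO library nearest to WT while KO library 3 was the farthest. This order was not particular to them. Over all tested genes KO library 2 also correlated best with the WT libraries (0.967 to 0.970) and KO library 3 least (0.952 to 0.956).

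Col9a3, a chain of the cartilage FACIT type IX, was at 2.35, 1.94 and 2.45 CPM in KO libraries and 0.858, 1.36 and 0.907 CPM in WT libraries, a rise of 1.11 on the log2 scale (SE 0.23, adjusted p = 0.00188 in edgeR's test). Its partner Col9a2 had 10, 8 and 3 counts in KO libraries and 3, 2 and 3 in WT libraries, and Col9a1 had 0 counts in all 6, so Col9a1 was not detected at this depth. Col20a1, a little-studied FACIT, was at 1.66, 1.38 and 1.52 CPM in KO libraries and 0.343, 0.708 and 0.680 CPM in WT libraries, a rise of 1.38 (SE 0.29, adjusted p = 0.00181). Col9a3 and Col20a1 lie 364 kb apart on chromosome 2 with 8 coding genes between them. The value of Col20a1 is uncertain, because 79 of its exon bases are shared with the gene BX649560.1 on the same strand, which had 3072 counts in all libraries together against 236 for Col20a1, and 234 exon bases of Col9a3 are shared with Tcfl5 on the opposite strand, which had 7 counts. Col16a1, a FACIT of smooth muscle and skin, was at 20.2, 16.7 and 18.7 CPM in KO and 18.7, 17.1 and 16.1 CPM in WT libraries and did not pass (adjusted p = 0.382). Col19a1, a FACIT of basement membrane zones, and Col22a1, of tissue junctions, had at most 2 counts in any library. In all, 3 fibril-associated genes rose and 1 fell of 5 tested among 9, again few genes beside the 27.8% higher and 27.8% lower of all tested genes.

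Type VI collagen, the beaded filament next to cell surfaces, had the collagen gene with the highest level per kilobase, Col6a1, and no call. Col6a1 (chromosome 10, positions 76708792 to 76726168, minus strand) was at 609, 556 and 648 CPM in KO libraries 1 to 3, against 591, 554 and 621 CPM in WT libraries 1 to 3. Col6a2, the gene 85.2 kb from it, was at 273, 245 and 278 CPM in KO libraries and 252, 239 and 268 CPM in WT libraries. Both overlapped between genotypes, with log2 fold changes of 0.04 (SE 0.07, adjusted p = 0.663) and 0.07 (SE 0.06, adjusted p = 0.368) by edgeR. Col6a2 passed at an adjusted p of 0.0343 with library totals and 0.0366 without KO replicate 2, and the sign of Col6a1 turned without KO replicate 3 or WT replicate 2. Their log2 ratio was 1.18 ± 0.031 in KO and 1.22 ± 0.011 in WT libraries (SD, n = 3 each; exact two-sided permutation p = 0.3, BH adjusted p = 0.4 over the 4 pairs).

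The third chain that type VI needs comes from Col6a3 or 1 of the genes Col6a4, Col6a5 and Col6a6. Col6a3 had 1, 1 and 2 counts in KO libraries and 3, 12 and 5 in WT libraries, below the filter. Col6a4 had 17, 5 and 12 counts in KO libraries and 0, 2 and 0 in WT libraries, also below the filter. Neither gene overlapped between genotypes, but neither was tested, and the nearest libraries lay within the 3 counts that a count of 0 allows. Col6a5 had 0 counts in all 6 libraries and Col6a6 at most 2. Per kilobase of exon, Col6a1 was at 138 and Col6a2 at 31.9 CPM in KO libraries, where Col6a4 was at 0.0359 and Col6a3 at 0.00292, and Col6a1 was at 134 and Col6a2 at 30.4 CPM in WT libraries, where Col6a4 was at 0.00231 and Col6a3 at 0.0158.

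The multiplexins, basement membrane collagens that release anti-angiogenic fragments such as endostatin, went opposite ways. Col18a1 (chromosome 10, positions 77052178 to 77166548, minus strand) was at 415, 372 and 426 CPM in KO libraries 1 to 3, against 358, 342 and 348 CPM in WT libraries 1 to 3. The groups did not overlap but the rise was 0.21 on the log2 scale (SE 0.06, adjusted p = 0.0109 in edgeR's test), and Col18a1 missed the threshold when KO replicate 1 (adjusted p = 0.0564) or WT replicate 2 (0.0619) was left out. Col15a1 (chromosome 4, positions 47208161 to 47313167, plus strand) was at 4.32, 4.25 and 4.41 CPM in KO libraries and 7.15, 6.44 and 10.8 CPM in WT libraries, and fell by 0.91 (SE 0.18, adjusted p = 0.00153 in edgeR's test). The log2 ratio of Col15a1 to Col18a1 was lower by 1.08 in KO (exact two-sided permutation p = 0.1, the smallest possible, BH adjusted p = 0.2).

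Col7a1, the anchoring fibril collagen that ties epithelium to stroma (chromosome 9, positions 108953586 to 108984875, plus strand), was at 21.6, 25.4 and 18.7 CPM in KO libraries 1 to 3, against 34.3, 32.5 and 28.4 CPM in WT libraries 1 to 3. All KO libraries were below all WT libraries, with a log2 fold change of -0.53 (SE 0.11; adjusted p = 0.00213, edgeR's test).

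Short-chain, transmembrane and remaining collagens were at low counts. Col8a2, of the hexagonal lattice under the cornea and around vessels, was at 1.09, 0.762 and 0.928 CPM in KO libraries and 0.601, 0.354 and 0.529 CPM in WT libraries, a rise of 0.89 on the log2 scale (SE 0.30, adjusted p = 0.0277 in edgeR's test). Col8a2 did not pass in DESeq2 (adjusted p = 0.0622) or when KO replicate 1 (0.105) or 3 (0.0605), or WT replicate 2 (0.1002) or 3 (0.0552), was left out. Its partner Col8a1 averaged 0.404 ± 0.049 CPM in KO, against 0.252 ± 0.070 CPM in WT (SD, n = 3 each), and did not pass (adjusted p = 0.148), although the groups did not overlap, and the log2 ratio of Col8a1 to Col8a2 differed by -0.21 (exact two-sided permutation p = 0.6). Col28a1, a collagen with von Willebrand factor A domains reported in mouse peripheral nerve, had 2, 7 and 1 counts in KO libraries and 14, 22 and 16 in WT libraries. It fell by 2.42 on the log2 scale (SE 0.56, adjusted p = 0.00339 in edgeR's test), with no overlap, and was at -3.46 without KO replicate 2. Col28a1 met the filter only through its WT libraries, the higher group, so this call and lack of overlap were not independent of the filter. Col23a1, a transmembrane collagen, had 11, 6 and 10 counts in KO and 5, 5 and 13 in WT libraries, and did not pass (adjusted p = 0.789).

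Outside those already named, the genes below the filter were the hypertrophic cartilage collagen Col10a1, with 4, 4 and 3 counts in KO libraries and 13, 5 and 5 in WT libraries (18 of its exon bases are shared with Nt5dc1), the transmembrane collagens Col13a1 and Col17a1, with at most 4 counts in any library, Col26a1, with at most 2, and Col25a1, with 0 in all 6. Of the 38 genes, 15 were below the filter and 3 had no count in any library.

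Added together, collagen transcripts took 0.250%, 0.221% and 0.259% of the counts in KO libraries 1 to 3, against 0.210%, 0.205% and 0.218% in WT libraries 1 to 3. The exact binomial 95% interval of KO library 3, for example, was 0.2572% to 0.2605%, and such intervals cover counting error only. On this scale of library totals KO library 2 was only just above WT library 3. On the TMM scale used for single genes, a choice added after the data were seen, the sums were 2376, 2165 and 2450 CPM in KO libraries 1 to 3, against 2218, 2132 and 2247 CPM in WT libraries 1 to 3. There KO library 2 lay below WT libraries 1 and 3, so the genotypes overlapped, and no test was made of the sum. Within the sum, Col3a1 held 20.6% ± 0.178 of collagen counts in KO and 12.2% ± 0.234 in WT libraries, and Col14a1 held 5.56% ± 0.728 in KO and 2.44% ± 0.108 in WT libraries (SD, n = 3 each). Col5a1 held 13.9% ± 0.984 in KO and 18.5% ± 0.521 in WT libraries, and Col1a1 0.442% ± 0.066 in KO and 6.10% ± 0.215 in WT libraries. Col6a1 held 25.9% ± 0.449 in KO and 26.8% ± 0.823 in WT libraries. Long genes gather more reads, so these shares are of reads and not of molecules.

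**Figure D4:**
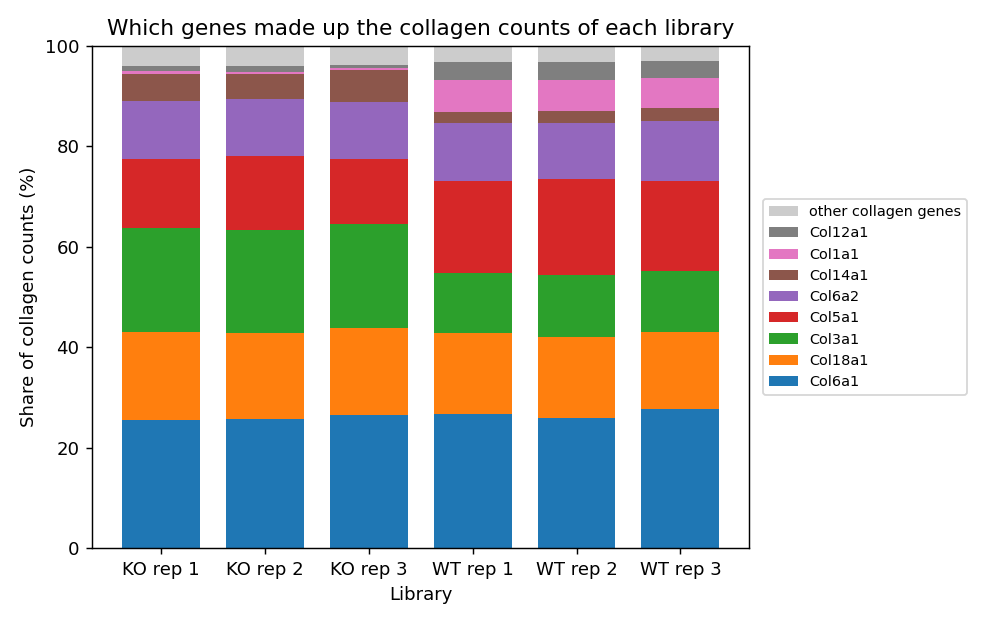
Share of the collagen counts (%) held by each of the 8 most abundant genes and by all others, in each library (KO left, WT right). Col3a1 and Col14a1 take more in every KO library, and Col1a1, Col12a1 and Col5a1 take less.

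Per kilobase of exon, the order of mean levels in KO libraries was Col6a1 (138 CPM), Col18a1 (57.6), Col3a1 (49.0), Col5a1 (37.9), Col6a2 (31.9), Col14a1 (18.6), Col11a2 (5.15), Col16a1 (2.75), Col7a1 (2.13), Col1a1 (1.57) and Col12a1 (1.48), with the rest under 1 CPM. In WT libraries it was Col6a1 (134 CPM), Col18a1 (49.8), Col5a1 (47.8), Col6a2 (30.4), Col3a1 (27.3), Col1a1 (20.4), Col14a1 (7.64), Col12a1 (5.03), Col7a1 (3.08), Col16a1 (2.56) and Col15a1 (1.28). The order of neighbours depends on the length used: with the longest annotated transcript, a choice made after the data were seen, Col3a1 was at 86.4 CPM and Col18a1 at 72.2 CPM in KO libraries.

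On 5 lists of genes that fold, process, bind or regulate collagen, 63.2% to 71.4% of the tested genes were called in either direction, against 55.7% of all tested genes, of which 27.8% were higher and 27.8% lower. Of 19 tested folding and hydroxylation genes (21 listed), 3 rose and 9 fell, with a median log2 fold change of -0.13 beside 0.01 for all tested genes. Fkbp10, a prolyl isomerase and collagen chaperone, averaged 0.510 ± 0.080 CPM in KO, against 13.35 ± 0.575 CPM in WT (SD, n = 3 each; log2 fold change -4.71, adjusted p = 7.31e-09 in edgeR's test). Its relative Fkbp14 rose by 1.13, the prolyl hydroxylase gene P3h2 fell by 0.87 and the lysyl hydroxylase gene Plod3 fell by 0.63 in log2 (adjusted p of 5.35e-04 or below in edgeR's test for each). With library totals this list had 6 higher and 5 lower genes. Serpinh1, the collagen chaperone HSP47, picked with its value known, averaged 1409 CPM in KO, against 1320 CPM in WT, and did not pass (adjusted p = 0.145), although it passed with library totals (0.00167) and upper quartiles (0.0300).

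Of 12 tested genes of procollagen processing and crosslinking (13 listed), 1 rose and 7 fell, with a median log2 fold change of -0.46. The lysyl oxidase relatives Loxl1 and Loxl4 fell by 1.88 and 1.56, Tll1, a protease of the BMP1 family, which trims procollagen, fell by 1.77, and the N-propeptidase gene Adamts3 fell by 0.79 in log2 (adjusted p of 0.00393 or below in edgeR's test for each). The gene that rose was Lox, the lysyl oxidase that starts collagen crosslinking, picked with its value known. Lox was at 736, 642 and 715 CPM in KO libraries 1 to 3, against 576, 526 and 605 CPM in WT libraries 1 to 3. These did not overlap, and its log2 fold change was 0.29 (SE 0.07; adjusted p = 0.00398, edgeR). Loxl1 averaged 5.50 ± 1.15 CPM in KO, against 20.3 ± 0.679 CPM in WT (SD, n = 3 each). With library totals or upper quartiles 2 genes were higher, and without KO replicate 2 there were 3.

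Of 7 tested collagen receptors (11 listed), 2 rose and 3 fell, with a median of -0.03. The endocytic receptor gene Mrc2 rose by 0.65 and the discoidin receptor gene Ddr2 by 0.55, while Ddr1 fell by 0.41 and the integrin gene Itgb1 by 0.38 on the log2 scale (adjusted p of 2.92e-04 or below in edgeR's test for each). Of 7 tested fibril-associated proteoglycans and partners (12 listed), 1 rose and 4 fell, with a median of -0.25. Biglycan (Bgn) fell by 1.42, fibronectin (Fn1) by 0.76 and Sparc by 0.25, and osteoglycin (Ogn) rose by 1.40 on the log2 scale (adjusted p of 0.00196 or below in edgeR's test for each).

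Of 22 tested regulators of collagen transcription (26 listed), 3 rose and 11 fell, with a median of -0.16. Sox6, a partner of SOX9 at cartilage collagen genes, averaged 0.733 ± 0.162 CPM in KO, against 5.25 ± 0.335 CPM in WT (SD, n = 3 each; log2 fold change -2.84, adjusted p = 1.25e-06 in edgeR's test). Ccn2, the matricellular factor CTGF, fell by 1.31, the tendon factor gene Scx, which acts on Col1a1, by 1.09 and Runx1 by 1.00 on the log2 scale (adjusted p of 0.00700 or below in edgeR's test for each). Sox9 itself, which binds Col2a1 and Col11a2 enhancers, picked with its value known, averaged 2.94 CPM in KO, against 2.81 CPM in WT, and did not pass (adjusted p = 0.869). With library totals this list had 6 higher and 8 lower genes, without a filter 5 were higher, and 1 was at an adjusted p under 0.01. Twist1, also picked with its value known, had 0 counts in KO and 39 in WT libraries, at least 13.7-fold lower against 3 counts over the KO group, and with this bound in place of its fitted value the median of the list was again -0.16.

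**Figure D5:**
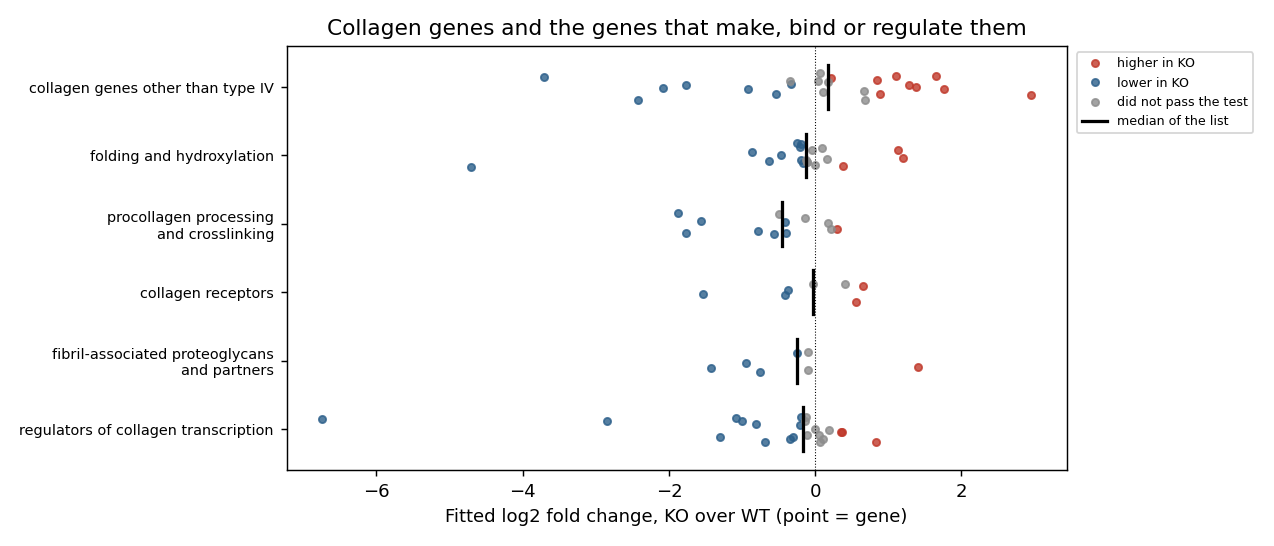
Fitted log2 fold change (KO over WT) of each tested collagen gene and of the genes on 5 related lists; each point is a gene, coloured by its call, and the black tick is the median of the list. Collagen genes spread to both sides of 0, and the lone point below -6 is Twist1, whose fitted value rests on 0 counts in KO.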

How the data were processed

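Counts of reads per Ensembl gene were deposited by the authors as whole numbers with no normalization, 1 column for each of the 6 libraries. Per the labels' protocols, column-purified total RNA went into NEBNext Ultra II libraries. Trimmomatic 0.36, STAR 2.5.2b, Subread 1.5.2 and GRCm38 are named, per the submitters' processing notes. Not given in the sources used here are the annotation release and the settings for strand and multi-mapping reads, so genes with shared exons can exchange reads. Symbols, coordinates and merged exon lengths came from GENCODE M21, to which 49056 IDs matched and 259 did not.

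Genes were filtered with filterByExpr (minimum count 10), scaled by TMM (edgeR's trimmed mean) and fitted with edgeR 4.0.16 (robust quasi-likelihood, genotype only) in R 4.3.3, and the SE is the log2 fold change over the root of the F statistic. Levels are TMM-scaled CPM. DESeq2 1.42.0, limma 3.58.1, other scalings and filters, a replicate block and omission of each library were alternatives. The fit was also run on simulated data in which few genes changed, so it was not tested at the share of genes called here. Ratios of partner chains, and of Col15a1 to Col18a1, were compared by exact permutation. Every collagen gene is named, and of each related list the 4 or fewer called genes that changed most and reached 1 CPM. Members and lists were chosen with earlier results of these data known. Promoters were printed only for windows free of annotated exons of the gene. Col1a1, the gene with the greatest fall, had no entry among the RefSeq promoters used, so no window is printed for it.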

Additional observations from a re-analysis of the deposited data

How the results depend on the processing

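The number of collagen genes called higher was 6 to 11 over the 16 alternative settings, against 9, and the number called lower 6 to 8, against 7. Col1a1, Col3a1, Col5a1, Col5a2, Col7a1, Col9a3, Col11a2, Col12a1, Col14a1, Col15a1, Col20a1, Col27a1 and Col28a1 kept direction and call in every setting in which they were tested. Of these, Col27a1 and Col28a1 met the main filter only through the genotype in which they were higher. Col2a1, Col8a2 and Col18a1 lost their calls as given beside them, and at an adjusted p under 0.01. When single libraries were left out, the log2 fold change of Col6a1 ran from -0.016 to 0.092, that of Col23a1 from -0.054 to 0.69, that of Sox9 from -0.16 to 0.42, and the log2 ratio of Col8a1 to Col8a2 (KO minus WT) from -0.51 to 0.071, none of them called. Col6a1 was at -0.016 without KO replicate 3 and -0.01 without WT replicate 2, Col23a1 at -0.054 without KO replicate 1, -0.03 without WT replicate 1 and -0.01 without WT replicate 2, Sox9 at -0.16 without KO replicate 2, -0.11 without WT replicate 1 and -0.077 without WT replicate 2, and the ratio at 0.071 without WT replicate 2. The cause of these changes of sign was not tested. Without Col6a1, the mean collagen share of counts was 0.180% in KO and 0.154% in WT libraries, and with TMM-scaled library sizes 0.233% in KO and 0.220% in WT libraries. Scaling by library totals moved the median log2 fold change of all tested genes to 0.13. With the replicate number as a block, 9 collagen genes were higher and 7 lower. Deviations of same-numbered libraries correlated at -0.059, 0.051 and 0.028, and those of differently numbered ones at -0.095 to 0.085. The column names carry set numbers in both genotypes. These correlations showed no pairing by number, but they cannot exclude that same-numbered libraries were handled together. Fitted changes of genes under 1 CPM rest on few counts.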
